A study of Mus musculus with 8 samples.

Results

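The genes described here are 10 parts of the route by which hormones and nerves release calcium in the exocrine pancreas: the receptors Cckar, Chrm1, Chrm3, Sctr and Vipr1, the G protein subunit Gnaq, the inositol trisphosphate receptors Itpr2 and Itpr3, and the store-operated entry proteins Orai1 and Stim1. They were chosen by gene name, and all 10 were found among the 21434 genes of the table. RNA was sequenced from homogenized pancreatic tissue of 4 Bach2KO and 4 Bach2WT mice. All 8 mice were untreated, 18 weeks old and from the line C57BL/6N-Bach2tm1b(EUCOMM)Wtsi/leg, in which Cre had removed part of the parental tm1a allele, and each genotype had 2 females (mice 1 and 2) and 2 males (mice 3 and 4). Bach2 encodes a transcription repressor best known from lymphocytes, and the animals were bred from heterozygous founders of that single line. The paper kept separate colonies of it in Rostock and Lübeck, and the site of these 8 mice is not among the labels used here. No cell type was sorted, so in this bulk tissue fewer cells of a type and less RNA per cell cannot be told apart.

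In the pancreatic acinar cell, cholecystokinin acts on the receptor encoded by Cckar and acetylcholine on the muscarinic receptors encoded by Chrm1 and Chrm3. Both kinds of receptor couple to Gq proteins, which switch on phospholipase C. The inositol trisphosphate that this enzyme makes opens Itpr2 and Itpr3 in the endoplasmic reticulum near the apical pole, and the calcium wave that follows drives the exocytosis of zymogen granules. When the store runs low, Stim1 in its membrane opens Orai1 in the plasma membrane, and calcium flows in. Secretin and vasoactive intestinal peptide act on Sctr and Vipr1, which signal through cyclic AMP and are known for fluid and bicarbonate secretion.

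The libraries held 72299745 to 172029360 counts on genes, of which digestive enzymes took 79.8 to 82.7%, so the other transcripts share what remains. The summed level of 8 acinar markers was 403200 to 458600 CPM (counts scaled to a library of the standard size, with TMM factors) in Bach2KO and 437700 to 586400 CPM in Bach2WT, so the labelled tissue was rich in acinar cells in every mouse. Bach2 itself had 3 to 16 counts in Bach2KO and 4 to 31 in Bach2WT, too few to check the genotypes. In the edgeR quasi-likelihood test with Benjamini-Hochberg adjustment, 1 of 12820 genes tested passed an adjusted p of 0.05 (0.0078%), and at an unadjusted p below 0.05 there were 957 (7.46%). Of these 957, 52.2% were higher in Bach2KO. After a correction for gene length, 1113 genes had such a p, and 27.2% of them were higher. The labels give each library a mouse of its own, and these p-values set the genotype difference against the spread of mice within a genotype. In that fit the spread of a gene also draws on the other genes, and sex is left in it.

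None of the 10 genes differed between the genotypes past the adjusted threshold, by edgeR or by DESeq2. Chrm3 was the single one with an unadjusted p below 0.05 in edgeR, 1 of 10 beside the 7.46% of all genes, and DESeq2 had 2 such genes, Chrm1 and Chrm3. In edgeR without the filter on low counts, and without Bach2KO 4, the single one was Chrm1 instead. Chrm3 was also the single one whose values did not overlap between the genotypes, a pattern found in 575 genes (4.49%). The log2 fold change, Bach2KO minus Bach2WT, was positive for 3 genes and negative for 7, with a median of -0.08 beside 0.05 over all genes tested. This median was 0.07 without Bach2WT 1 and 0.01 without Bach2KO 1. The signs also depended on the scaling. On CPM of the full library size, without TMM factors, the means of Cckar, Vipr1, Itpr2 and Stim1 were higher in Bach2KO.

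**Figure D1:**
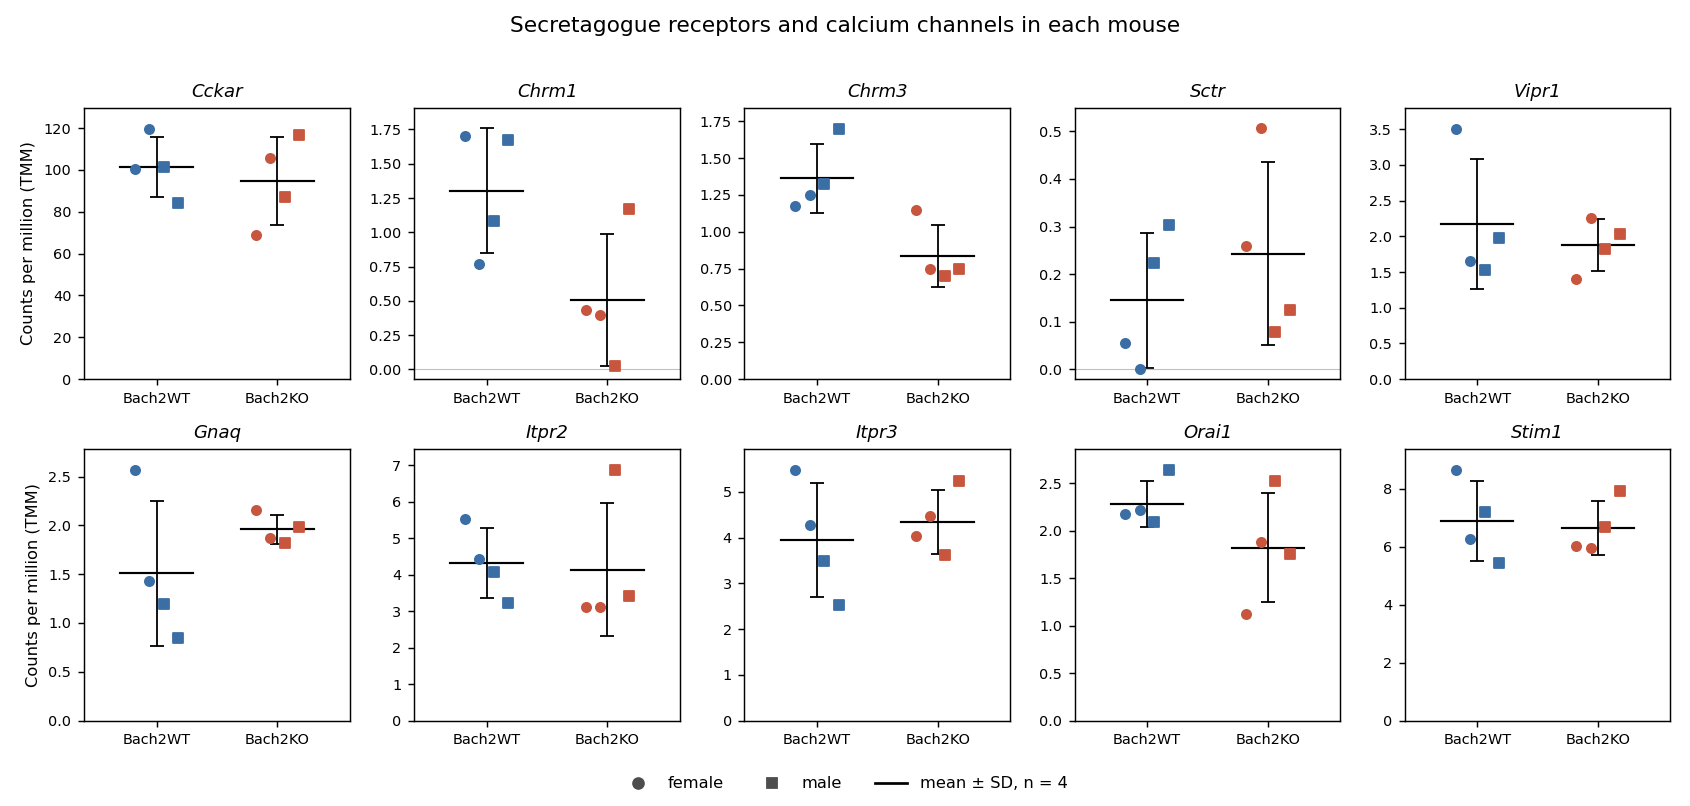
CPM of each of the 10 genes in every mouse (vertical axes from 0, scaled with TMM factors), with Bach2WT in blue and Bach2KO in red, circles for females, squares for males, and a line with bars for the mean and SD of 4 mice. The groups share their range in 9 panels, and in the Chrm3 panel all Bach2KO values lie below all Bach2WT values on this scale.

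Levels were compared between genes on the deposited FPKM scale, which is per length. Cckar stood at 27.1 FPKM in Bach2WT, above 98.8% of the genes in the table. The next gene, Orai1, was at 0.980 FPKM, so Cckar was 27.7-fold higher, and this order held in 8 of 8 mice. Stim1 followed at 0.654, Itpr3 at 0.430, Vipr1 at 0.368, Itpr2 at 0.287, Gnaq at 0.240, Chrm3 at 0.215, Chrm1 at 0.198 and Sctr at 0.0714 FPKM. Of the neighbours in this order, only Cckar and Orai1, and Orai1 and Stim1, had Bach2WT ranges that did not overlap. Orai1 was above Stim1 in 4 of 4 Bach2WT mice but in 2 of 4 Bach2KO mice. Itpr2 was above Gnaq in 4 of 8 mice and Vipr1 above Itpr2 in 5 of 8, so those steps were within the spread. The receptor for cholecystokinin was read far more deeply than any other of the 10, with 5848 to 22545 counts a mouse, whereas Sctr had 0 to 42.

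Promoter sequences, 250 bases before to 50 after the start of the gene, were found in RefSeq (GRCm38.p6) for 7 of the 10 genes, namely Chrm3, Gnaq, Itpr2, Itpr3, Orai1, Stim1 and Vipr1. They were searched on both strands for the GC box GGGCGG, the box CCAAT, the box TATAAA and TGACTCA, the letters that AP-1 and Bach-type factors can share. GGGCGG was in 6 of the 7 promoters, all but that of Chrm3, and in 35.7% of the 32851 promoters searched. CCAAT was in those of Itpr2, Orai1 and Vipr1 and in 37.4% of all promoters. Neither TGACTCA (5.2% of all) nor TATAAA (13.6%) was in any of the 7. The G and C content was 57.3% for Chrm3 and 70.3 to 78.7% for the other 6, beside a median of 52.7% over all promoters. The promoters of Chrm3, the gene without overlap between the genotypes, and of Orai1 are printed to show this contrast, at chr13:10360754-10361053 (minus strand) and chr5:123014824-123015123 (plus strand), 5′ to 3′. Capitals mark GGGCGG or CCAAT on either strand, and no motif overlapped another in the Orai1 promoter. These letters are a description of the windows and not binding sites.
Chrm3: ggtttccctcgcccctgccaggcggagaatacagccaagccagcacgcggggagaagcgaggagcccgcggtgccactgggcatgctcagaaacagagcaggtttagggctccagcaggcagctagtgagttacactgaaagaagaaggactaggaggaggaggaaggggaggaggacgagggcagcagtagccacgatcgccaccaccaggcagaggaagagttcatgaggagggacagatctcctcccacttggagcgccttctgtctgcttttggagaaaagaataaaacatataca
Orai1: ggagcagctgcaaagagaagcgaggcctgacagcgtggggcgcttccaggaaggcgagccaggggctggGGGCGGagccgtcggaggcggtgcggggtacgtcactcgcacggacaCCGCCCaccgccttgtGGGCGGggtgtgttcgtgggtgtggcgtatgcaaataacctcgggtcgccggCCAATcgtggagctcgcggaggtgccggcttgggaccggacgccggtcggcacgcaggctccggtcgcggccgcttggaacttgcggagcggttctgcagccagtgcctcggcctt

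Cckar (chromosome 5, 53855118 to 53865047, minus strand, mm39) is the main hormone receptor of the mouse acinar cell. In the 4 Bach2KO mice it was at 68.8, 105.5, 87.2 and 116.8 CPM, and in the 4 Bach2WT mice at 100.3, 119.7, 101.2 and 84.2 CPM. Each group holds low and high mice, and the ranges overlap. The log2 fold change was -0.10 (SE 0.184, 95% interval -0.50 to 0.30, edgeR with Benjamini-Hochberg adjusted p = 0.948). Its paralog Cckbr, which also binds gastrin, was at 0.239 FPKM in Bach2WT, and Cckar made up 99.1% ± 0.753 (SD, n = 4) of the pair's summed FPKM there and 99.2% ± 0.817 in Bach2KO.

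Chrm3 (chromosome 13, 9925522 to 10410883, minus strand) encodes the M3 muscarinic receptor, the main target of the vagal nerve endings on acinar cells. It was at 1.15, 0.749, 0.700 and 0.746 CPM in Bach2KO and at 1.18, 1.25, 1.32 and 1.70 CPM in Bach2WT. The 3 lower Bach2KO mice lie close together, and Bach2KO 1 lies just under Bach2WT 1. The mean was 0.836 ± 0.210 against 1.36 ± 0.232 CPM (SD, n = 4), a log2 fold change of -0.70 (SE 0.289, 95% interval -1.32 to -0.07). Its unadjusted p was 0.0313 and the adjusted p was 0.642 in edgeR, and 0.0186 and 0.409 in DESeq2, so the difference did not pass the test. The gap also depended on the scale: on CPM of the full library size Bach2KO 1 was at 1.35, above Bach2WT 1, 2 and 3 at 1.30, 1.07 and 1.10 CPM, and the genotypes overlapped. The TMM factors ran from 1.05 to 1.18 in Bach2KO and from 0.826 to 1.1 in Bach2WT.

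Chrm1 (chromosome 19, 8641153 to 8660951, plus strand), the M1 muscarinic receptor, was at 0.433, 0.399, 0.0264 and 1.17 CPM in Bach2KO and at 1.70, 0.770, 1.08 and 1.67 CPM in Bach2WT. Of the Bach2KO mice, 3 lie below all Bach2WT mice and Bach2KO 4 lies within their range. Bach2KO 3 had 2 counts, under the floor of 3 counts (0.0396 CPM) below which a value is not told from none. The log2 fold change was -1.32 (SE 0.650, 95% interval -2.73 to 0.08, edgeR unadjusted p = 0.0625 and adjusted p = 0.693), and it was -2.15 without Bach2KO 4 and -0.96 without Bach2KO 3. Both muscarinic receptor genes had the lower mean in Bach2KO, and neither passed the test. Of the summed FPKM of Chrm1 to Chrm4, Chrm3 made up 49.3% ± 12.5 in Bach2WT and 65.8% ± 24.8 in Bach2KO, and Chrm1 42.7% ± 4.62 and 28.7% ± 21.

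Vipr1 (chromosome 9, 121471782 to 121502020, plus strand), a receptor of vasoactive intestinal peptide, was at 1.40, 2.26, 1.82 and 2.04 CPM in Bach2KO and at 3.51, 1.66, 1.53 and 1.97 CPM in Bach2WT. Bach2WT 1 stands above the other 7 mice, which share 1 range. Between the genotypes Vipr1 differed by -0.20 on the log2 scale (SE 0.293, edgeR adjusted p = 0.933), and without Bach2WT 1 it was 0.13. Its paralog Vipr2 had a like level, 0.413 FPKM in Bach2WT beside 0.368 for Vipr1, and was above Vipr1 in 6 of 8 mice.

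Sctr (chromosome 1, 119934624 to 119991266, plus strand), the secretin receptor known mainly from duct cells, was at 0.260, 0.507, 0.0793 and 0.124 CPM in Bach2KO. In Bach2WT it was at 0.0555, 0, 0.223 and 0.302 CPM. The Bach2WT 2 library had no count, which allows a level of up to 0.0229 CPM (3 counts). Sctr had a log2 fold change of 0.75 with an interval of -1.51 to 3.00 (edgeR adjusted p = 0.933), and the coefficient of variation was 79.3% in Bach2KO and 97.3% in Bach2WT. That fold change was 0.11 without Bach2KO 2 and 1.36 without Bach2WT 4. The 8 duct markers summed to 85.9 to 135 CPM in Bach2KO and 109 to 154 CPM in Bach2WT (two-sided exact permutation p = 0.371), and most of that was Muc1, at 64.1 to 109 CPM in Bach2KO and 84.2 to 131 CPM in Bach2WT. Krt7, a duct keratin, was higher in all Bach2KO mice than in all Bach2WT mice, at 2.30 ± 0.266 against 1.55 ± 0.170 CPM (log2 fold change 0.57, edgeR adjusted p = 0.627). Cftr and Slc4a4 were at 0 in some mice.

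Gnaq (chromosome 19, 16110195 to 16364827, plus strand) encodes the Gq alpha subunit through which Cckar, Chrm1 and Chrm3 signal. It was at 2.16, 1.87, 1.82 and 1.99 CPM in Bach2KO and at 2.57, 1.43, 1.19 and 0.850 CPM in Bach2WT. The Bach2KO mice lie close together (coefficient of variation 7.55%) and the Bach2WT mice far apart (49.2%), with Bach2WT 1 above and the other 3 below all Bach2KO mice. Gnaq had a log2 fold change of 0.38 (SE 0.312, 95% interval -0.30 to 1.05, edgeR adjusted p = 0.857). Without Bach2WT 1 it was 0.75, with an unadjusted p of 0.0187 and an adjusted p of 0.371, and without Bach2WT 4 it was 0.19, with an unadjusted p of 0.543. Gnaq was a small part of its family by level: Gna11, the closest paralog, held 76.3% ± 5.94 of the summed FPKM in Bach2WT, Gna14 16.4% ± 2.88 and Gnaq 5.83% ± 3.01, and Gnaq held 9.01% ± 1.79 in Bach2KO. Gna11 was above Gna14 and Gnaq in 8 of 8 mice.

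Itpr3 and Itpr2 encode the type 3 and type 2 inositol trisphosphate receptors, the main calcium release channels of the acinar cell. Itpr3 (chromosome 17, 27276278 to 27341197, plus strand) was at 4.03, 4.47, 3.62 and 5.24 CPM in Bach2KO and at 5.48, 4.28, 3.50 and 2.52 CPM in Bach2WT. Bach2WT 1 is the highest of the 8 mice and Bach2WT 4 the lowest, with the Bach2KO mice between them. Itpr3 had a log2 fold change of 0.14 (SE 0.235, 95% interval -0.37 to 0.65, edgeR adjusted p = 0.945). Itpr2 (chromosome 6, 146009797 to 146403721, minus strand) was at 3.13, 3.13, 6.87 and 3.42 CPM in Bach2KO and at 5.53, 4.44, 4.08 and 3.23 CPM in Bach2WT. Bach2KO 3 holds more than any other mouse, and the other 3 Bach2KO mice lie at the low end. For Itpr2 the log2 fold change was -0.07 (SE 0.272, 95% interval -0.65 to 0.52, edgeR adjusted p = 0.979), and -0.44 without Bach2KO 3. Per length, Itpr3 was above Itpr2 in 7 of 8 mice, by a ratio of 1.62, 1.58, 1.41 and 1.28 in Bach2WT and of 2.11, 2.34, 0.865 and 2.51 in Bach2KO. Itpr1, the type of the brain, made up 7.53% ± 0.733 of the 3 types in Bach2WT and 5.07% ± 2.54 in Bach2KO.

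Orai1 (chromosome 5, 123153137 to 123168519, plus strand), the pore of the store-operated channel, was at 1.12, 1.88, 2.52 and 1.75 CPM in Bach2KO and at 2.18, 2.22, 2.09 and 2.64 CPM in Bach2WT. Of the Bach2KO mice, 3 lie below all Bach2WT mice and Bach2KO 3 lies within their range on this scale. The log2 fold change was -0.33 (SE 0.260, 95% interval -0.89 to 0.23, edgeR adjusted p = 0.838), and it ran from -0.54 without Bach2KO 3 (unadjusted p = 0.0522) to -0.15 without Bach2KO 1 (unadjusted p = 0.539). On CPM of the full library size Bach2KO 2 and 4 were at 2.02 and 2.03, above Bach2WT 2 and 3 at 1.90 and 1.74. Stim1 (chromosome 7, 101917013 to 102086526, plus strand), the calcium sensor of the store, was at 6.02, 5.95, 6.67 and 7.93 CPM in Bach2KO and at 8.64, 6.27, 7.21 and 5.43 CPM in Bach2WT. The groups lie over each other, with a log2 fold change of -0.05 (SE 0.184, 95% interval -0.45 to 0.35, edgeR adjusted p = 0.975). Per length, Stim1 held 75.2% ± 7.07 of the Stim pair in Bach2WT and 72.2% ± 6.18 in Bach2KO.

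Orai1 was not the most abundant of its family. Orai3 was above Orai1 in 8 of 8 mice, at 1.36 FPKM in Bach2WT. Orai3 made up 39.4 to 44.4% of the summed Orai FPKM in Bach2WT and 46.6 to 52.8% in Bach2KO, while the mean share of Orai1 was 30.4% ± 1.77 and 23.9% ± 5.34. The ranges of the Orai3 share did not overlap, and this share was picked out after its values were seen. By itself, Orai3 overlapped between the genotypes, with a log2 fold change of 0.23 (SE 0.191, edgeR adjusted p = 0.857).

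**Figure D2:**
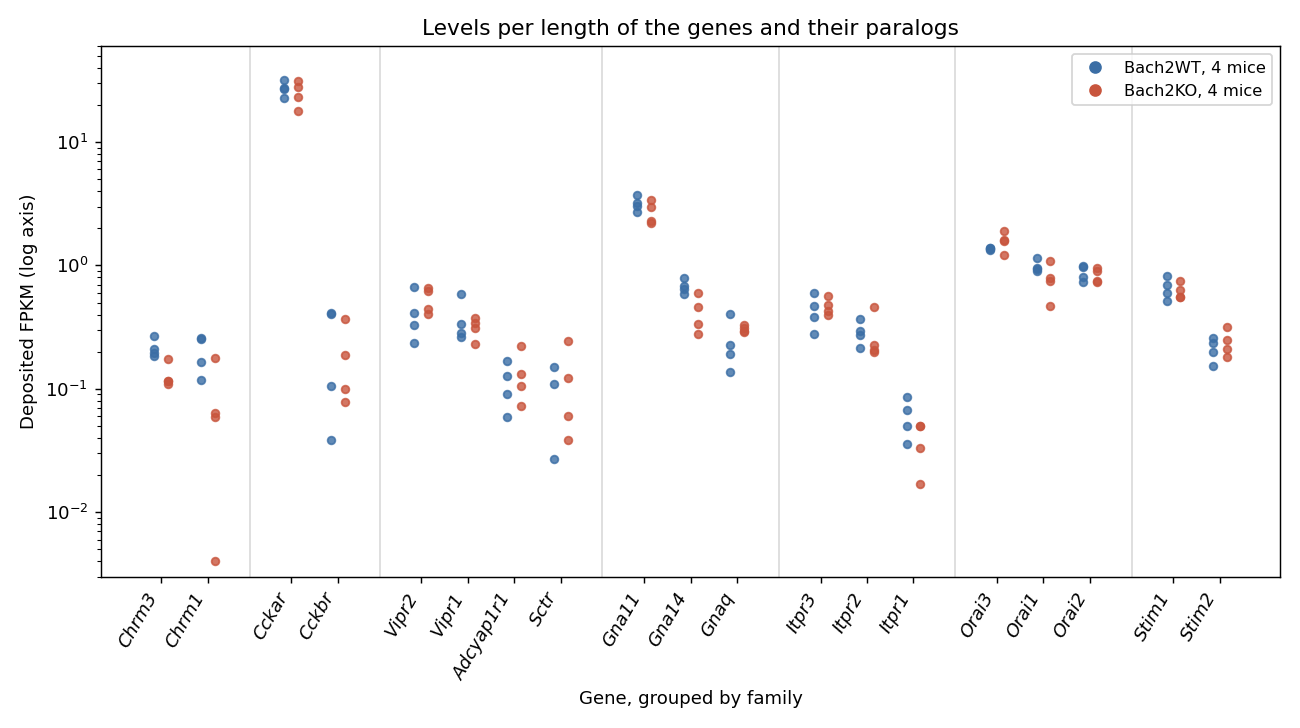
Deposited FPKM (vertical log axis) of the genes and their paralogs in each of 4 Bach2WT (blue) and 4 Bach2KO (red) mice, grouped by family. Cckar, Gna11, Itpr3, Orai3 and Stim1 lead their families, and a value of 0 (Sctr in Bach2WT 2) cannot be drawn on this axis. Chrm2, Chrm4 and Gna15 were left out for their low levels.

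Some values stood beside the marker sums of other cells in single mice or within a genotype. These matches were picked out after the values were seen, and the part of those cells in the results was not tested. Bach2KO 3, the mouse with the highest Itpr2, had the highest endothelial marker sum (30.8 CPM, against 11.2 to 20.8 in the other 7 mice). It also had the highest nerve and Schwann cell sum (1.43 CPM, against 0.125 to 1.03). Bach2KO 1, next after it in both sums, had a low Itpr2 level (3.13 CPM). The islet marker sum was 2024 CPM in Bach2KO 3 and 2319 CPM in Bach2WT 4, against 185 to 645 in the other 6 mice. Bach2KO 3 and Bach2WT 4 also had the highest Orai1, but Bach2KO 1, next in islet sum at 645 CPM, had the lowest (1.12 CPM). The summed stellate cell and fibroblast markers in Bach2WT 1 to 4 were 69.4, 44.1, 39.8 and 26.7 CPM, the order in which Gnaq, Itpr2 and Itpr3 also stood in those mice. In Bach2KO 1 to 4 the fibroblast sums were 29.5, 49.3, 58.7 and 53.5 CPM. Itpr2 stood in that order there too, but Gnaq and Itpr3 did not. Bach2KO 1, with the lowest sum of its genotype, had the highest Gnaq (2.16 CPM), and Bach2KO 3, with the highest sum, had the lowest Itpr3 (3.62 CPM). In Bach2WT 1 to 4 the B cell sums (5.17, 1.72, 0.501 and 0.360 CPM) and the adipocyte sums (11.2, 8.57, 1.83 and 1.01 CPM) also fell from mouse 1 to mouse 4. In Bach2KO 1 to 4 the B cell sums were 1.98, 0.169, 0.0264 and 0.75 CPM, the order in which Gnaq stood there. The T cell sums there (2.74, 1.075, 0.753 and 1.22 CPM) stood in that order too, but not those of Bach2WT. The adipocyte sums of Bach2KO did not. All markers of the endothelial, islet and stellate lists were detected in every mouse, whereas each of the 7 nerve genes of the table, 6 of 7 B cell genes and 4 of 6 adipocyte genes were at 0 in at least 1 mouse. With TMM factors the acinar marker sums overlapped (two-sided exact permutation p = 0.0857), with 7 of the 8 genes at a negative log2 fold change. These values depended on the scale. On CPM of the full library size Ctrb1 ran from 142600 to 188700 in Bach2KO and from 141900 to 160000 in Bach2WT. Cpa1 ran there from 61140 to 62270 in Bach2KO and from 69640 to 75030 in Bach2WT. Of the acinar list, Cpa1 and Cel, both digestive enzymes, were lower in all Bach2KO mice than in all Bach2WT mice with TMM factors. This lack of overlap was found in 4.49% of all genes tested, and both genes were named after their values were seen. Prss2 overlapped, with a log2 fold change of -0.57 (edgeR adjusted p = 0.531). Cpa1 had a log2 fold change of -0.53 (edgeR adjusted p = 0.513, DESeq2 adjusted p = 0.0457), and Cel of -0.45 (edgeR adjusted p = 0.607, DESeq2 adjusted p = 0.265). T cell markers, at 0.753 to 2.74 CPM in Bach2KO and 0.181 to 1.89 CPM in Bach2WT, overlapped as well. All 6 tested T cell genes had a positive log2 fold change (median 0.88), but 6 of the 8 on the list were at 0 in at least 1 mouse. All 3 tested B cell genes had a negative log2 fold change (median -1.22). Of the 8 macrophage genes 6 were positive. Their sums were 17.35 to 25.39 CPM in Bach2KO and 13.49 to 26.26 CPM in Bach2WT (two-sided exact permutation p = 0.543).

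**Figure D3:**
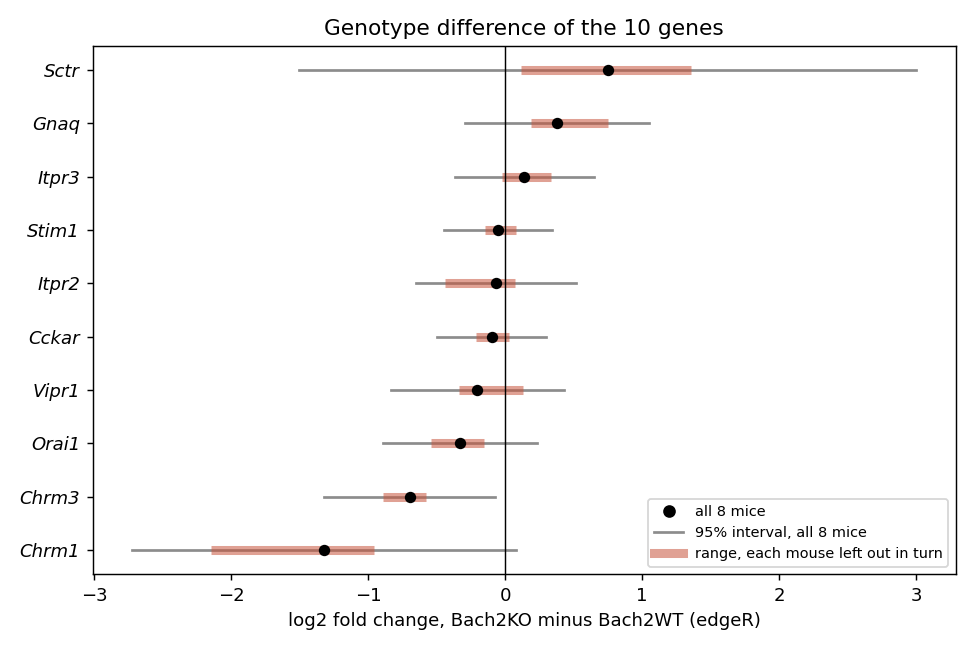
Log2 fold change, Bach2KO minus Bach2WT, of the 10 genes (points, edgeR, all 8 mice), with the 95% interval (grey lines) and the range over the 8 fits that each leave 1 mouse out (red bars). The interval of Chrm3, -1.32 to -0.07, is the only one that does not reach 0, and it is not adjusted for the 12820 genes tested.

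A list of 88 other genes of the pathway was followed, of which 81 were analysed and 64 passed the filter on low counts. None passed the adjusted threshold in edgeR or DESeq2. At an unadjusted p below 0.05 in edgeR, 2 were higher in Bach2KO and 1 lower, beside 7.46% of all genes, and 3 of the 64 did not overlap, beside 4.49%. The median log2 fold change was 0.10, with 39 positive and 25 negative values. Piezo1, a mechanically gated calcium channel, was at 1.64, 1.17, 2.35 and 1.42 CPM in Bach2KO and at 0.877, 0.724, 1.10 and 0.446 CPM in Bach2WT. All Bach2KO mice lay above all Bach2WT mice, with a log2 fold change of 1.05 (SE 0.336, edgeR adjusted p = 0.531). The following 4 genes were named after their values were seen. Rgs2, which shortens Gq signals, had a mean of 1.16 ± 0.981 CPM in Bach2KO and 0.276 ± 0.228 CPM in Bach2WT, and the ranges overlapped (log2 fold change 2.06, SE 0.762, edgeR adjusted p = 0.606). Gna14, a Gq family subunit, had means of 1.48 ± 0.492 and 2.36 ± 0.306 CPM and also overlapped (log2 fold change -0.67, SE 0.268, edgeR adjusted p = 0.627). Gnas and Saraf did not overlap but had unadjusted p values of 0.104 and 0.0800.

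By subgroup, the counts of positive log2 fold changes were 8 of 9 for the cyclic AMP arm (median 0.20), 8 of 11 for pumps, exchangers and mitochondrial uptake (0.11), 5 of 7 for receptors of other secretagogues and modulators (0.29), and 1 of 4 for G proteins (-0.26). They were 3 of 6 for phospholipase C and phosphoinositide supply, 3 of 7 for other release channels, 3 of 6 for store-operated and other entry, 4 of 8 for kinases and phosphatases and 4 of 6 for desensitization. Over all genes tested, 7007 of 12820 were positive. The most abundant were Saraf, which damps store-operated entry, at 14.1 FPKM in Bach2WT, and Gnai2, an inhibitory G protein subunit, at 4.50 FPKM. Next came the calcium pump gene Atp2c2 at 3.44, Gna11 at 3.18, and Prkaca, a catalytic subunit of protein kinase A, at 3.17 FPKM. Atp2a2, the pump that refills the store, was at 2.54 FPKM in Bach2WT and 2.69 in Bach2KO (log2 fold change 0.11, edgeR adjusted p = 0.960). The 2 highest genes of each other subgroup, Sstr2 and Vipr2, Pitpna and Plcb3, Tpcn1 and Ahcyl1, Camk2b and Ppp3r1, and Grk2 and Grk6, had log2 fold changes from -0.04 (Tpcn1) to 0.39 (Vipr2), all with overlap. Prkar1a was at -0.07. Of the ligands, Vip and Grp were in the table and neither passed the filter.

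**Figure D4:**
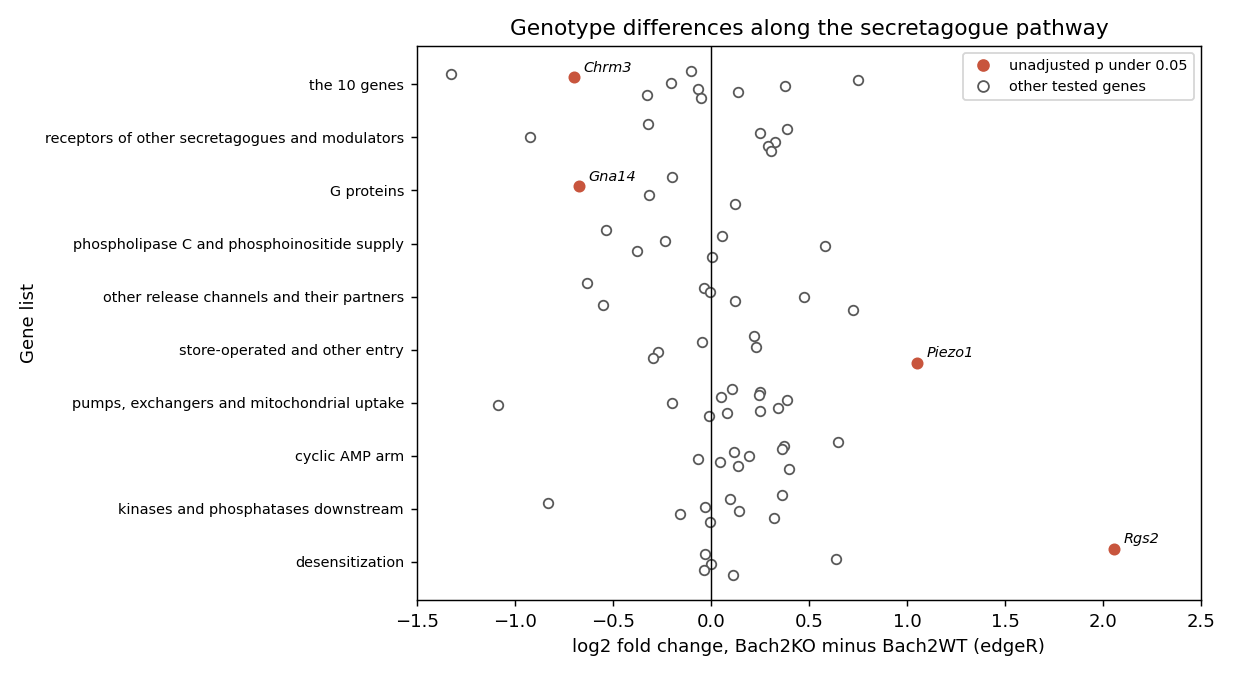
Log2 fold change, Bach2KO minus Bach2WT (horizontal axis, edgeR), of the 10 genes and of the 64 tested genes of the pathway list by subgroup (rows). Filled points have an unadjusted p below 0.05, namely Chrm3, Gna14, Piezo1 and Rgs2, and no gene passed the adjusted threshold.

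Females and males were compared over both genotypes. None of the 10 genes passed the adjusted threshold in edgeR (4 of 12820 genes did, 0.0312%) and none had an unadjusted p below 0.05 (678 genes, 5.29%). The smallest was that of Gnaq, with a female minus male log2 difference of 0.51 (SE 0.291, unadjusted p = 0.102, adjusted p = 0.890). The genotype by sex interaction called 0 genes in edgeR (0%) and 18 in DESeq2, and 787 genes (6.14%) had an unadjusted p below 0.05 in edgeR, 2 of the 10 genes among them. Itpr2 had a genotype log2 fold change of -0.67 in females and 0.49 in males (interaction -1.16, SE 0.464, unadjusted p = 0.0288, adjusted p = 0.807), and Bach2KO 3 is 1 of the 2 Bach2KO males. Sctr had 3.79 in females and -1.37 in males (unadjusted p = 0.0197, adjusted p = 0.793), and the Bach2WT females had 5 and 0 counts.

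The genes whose log2 CPM over the 8 libraries was most like that of each of the 10 were found by Pearson r, as a description over libraries that share their genotype and scaling. For Cckar these were Exoc7 (0.98) and Ifi27 (0.956), for Chrm1 Zbtb48 (0.989) and Nfatc1 (0.982), for Chrm3 1500011B03Rik (0.983) and Pura (0.961), and for Orai1 Gm5854 and Ssc5d (both 0.985). For Gnaq they were Ccdc88b and Ppp1r7, for Itpr2 2010320M18Rik and Nrxn2, for Itpr3 Lcp1 and Usp22, for Stim1 Rcn3 and Mbp, for Sctr Aste1 and Gm14410, and for Vipr1 Tinf2 and Commd3. All were picked for the highest r among all genes tested over only 8 libraries, so such high values can come from the search itself. Among the 10 genes themselves, Gnaq and Itpr3 were the closest pair (r = 0.865), followed by Itpr3 and Stim1 (0.717), while Chrm3 and Gnaq were the most opposed (-0.608).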

How the data were processed

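Total RNA was isolated from homogenized pancreas, and polyadenylated RNA was sequenced. Per the labels, the submitters' processing notes name fastp, HISAT2 2.2.1, featureCounts 2.0.6 and mm39. Whether the libraries kept strand is not settled by the labels, so reads of overlapping antisense genes may be included. The authors deposited counts per gene, a normalized signal (counts divided by 1 size factor per library) and FPKM (that signal per gene length). The deposited table also holds the authors' means per genotype and the authors' own test, as log2 values with raw and adjusted p-values, none of which was used.

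The deposited counts were fitted with edgeR 4.0.16 (TMM factors, filterByExpr, quasi-likelihood test, all 8 libraries, no covariate) in R 4.3.3, with Benjamini-Hochberg adjustment over 12820 genes and 95% intervals from the fit. The procedure was run on simulated data in which 200 genes, none with few counts, were changed by a log2 of 2. That run does not show whether smaller differences, or those of genes with few counts, would be found. DESeq2 1.42.0, RLE factors, other filters and scalings, covariates and omission of each mouse were alternatives. Sums of markers were compared with exact permutation tests. The members and lists were chosen with earlier results of these data known. Named were the 10 genes, their 2 most correlated genes each, the pathway genes without overlap at an unadjusted p below 0.05, and the 2 highest by FPKM in Bach2WT per subgroup. Floors of 3 counts cover counting error only.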

Additional observations from a re-analysis of the deposited data

Results flagged for a closer look

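In a search for single mice apart from the rest of their group, 20 groups of 4 (10 genes, 2 genotypes) were examined with Dixon's ratio, which chance exceeds in about 1 of 20 groups. Chrm3 in Bach2KO 1 was at 1.15 CPM, whereas the other Bach2KO mice were at 0.700 to 0.749 CPM (ratio 0.892). Itpr2 in Bach2KO 3 was at 6.87 CPM, against 3.13 to 3.42 CPM in the other Bach2KO mice (ratio 0.921). The genotype difference of Sctr differed between the sexes before adjustment, with a log2 ratio of 3.79 in females and -1.37 in males (interaction unadjusted p = 0.0197, adjusted p = 0.793), on 0 to 42 counts a mouse.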

How the results depend on the processing

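No setting brought any of the 10 genes, or of the 64 tested pathway genes, past the adjusted threshold, and the lowest adjusted p of the 10 genes was 0.371. Of 168 refitted fold changes of the 10 genes, 160 kept their sign. The 8 that changed it all came from omitting 1 mouse, concerned 5 genes (Cckar, Vipr1, Itpr2, Itpr3 and Stim1) and reached at most 0.13. No refit used the full library size without scaling factors. On CPM of that scale the means of Cckar, Vipr1, Itpr2 and Stim1 were higher in Bach2KO. Cckar was there at 80.9, 113.1, 91.3 and 135.4 CPM in Bach2KO and at 110.6, 102.7, 84.5 and 69.6 CPM in Bach2WT. On omitting each mouse in turn the log2 fold changes ran from -0.217 to 0.0269 for Cckar, -0.341 to 0.128 for Vipr1, -0.439 to 0.0721 for Itpr2, -0.0229 to 0.337 for Itpr3 and -0.149 to 0.0760 for Stim1. Chrm3 ran from -0.89 to -0.58 (unadjusted p 0.0118 to 0.0909), Chrm1 from -2.15 to -0.96, Sctr from 0.11 to 1.36, Gnaq from 0.19 to 0.75 and Orai1 from -0.54 to -0.15. The number of the 10 genes with an unadjusted p below 0.05 was 1, and it was 2 with DESeq2, with the replicate block and with the gene length correction, and 0 to 2 on omitting a mouse: it was 0 without Bach2KO 2, Bach2KO 3, Bach2WT 3 or Bach2WT 4 and 2 without Bach2WT 1. Without a filter (Chrm1 unadjusted p = 0.0163, Chrm3 0.0529) and without Bach2KO 4 (0.00687, 0.0719) it was 1, with Chrm1 in place of Chrm3. With CPM on the full library size the number without overlap was 0.

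Over all genes, 1 was called, against 80 with DESeq2, 73 without a filter, and 0 with at least 10 counts in every mouse, with sex as a covariate, with the replicate block, with counts divided by 2, and on omitting any mouse (0 to 0). Without a filter 1630 genes had an unadjusted p below 0.05. The sex comparison called 19 genes with DESeq2 and 152 without a filter, and the interaction 18 and 92. The cause of these shifts was not tested. The gene length correction moved the median of all genes by -0.13. Relative to that shift 9 of the 10 genes kept their sign (Chrm3 -0.76, Chrm1 -1.38), and Itpr2 was at 0.08. The median of the 10 genes was -0.21 under this correction and ran from -0.18 to 0.07 on omitting a mouse. Whether the replicate numbers pair the mice is not settled here. Deviations of mice with the same number correlated at 0.212, -0.0344, -0.0409 and -0.0543. Bach2WT 1 was the best match of Bach2KO 1, and the other Bach2KO mice matched best with a mouse of another number. With the replicate block 972 genes had an unadjusted p below 0.05. The common biological coefficient of variation was 0.438. With counts divided by 2, Sctr was at 0.83 (unadjusted p = 0.388) and Chrm1 at -1.29 (unadjusted p = 0.0529).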
